A study of Mus musculus with 9 samples.

Results

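Gsx2, Dlx1, Dlx2, Dlx5, Dlx6 and Sp8 encode transcription factors of the ventral progenitors and interneurons that supply the olfactory bulb, and they were followed from E11 to birth. They were chosen by name, as the probe sets whose only gene symbol was one of these 6. Their Entrez Gene identifiers are 14843 for Gsx2, 13390 for Dlx1, 13392 for Dlx2, 13395 for Dlx5, 13396 for Dlx6 and 320145 for Sp8. Each had 1 probe set, so the set held 6 of 45101 probe sets, and all 6 passed the filter on low values and were among the 10864 genes tested. The study dissected the olfactory bulb of CD1 mouse embryos daily, E11 through E18, and of 1 newborn (P0). Each of the 9 ages had 1 array, hybridised with the RNA of 1 individual after 2 rounds of amplification. All groups shared the outbred CD1 strain, and the labels name no introduced allele and no treatment. Values are deposited log2 expression levels per probe set, on which 1 unit is a 2-fold difference. No age had a replicate, so the error of every trend is the scatter of single animals round a line, and the 9 arrays limit the precision.

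Gsx2 is a homeodomain factor of dividing progenitors in the ventral telencephalon, where it acts upstream of the Dlx genes. Dlx1 and Dlx2 are homeodomain factors that start in those progenitors and specify GABA-producing neurons. Dlx5 and Dlx6 are switched on after them, in cells leaving the cell cycle, and Dlx factors activate the Gad genes that make GABA. Sp8 is a zinc finger factor of the Sp family, active in migrating precursors and in several classes of periglomerular and granule interneuron. The bulb receives these interneurons by migration from the lateral ganglionic eminence and neighbouring ventral zones, whereas its mitral and tufted projection neurons arise locally from pallial progenitors.

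Promoter sequences are shown for the gene that fell with age, Gsx2, and for 3 genes that rose, Dlx1, Dlx2 and Sp8, so that the opposite courses can be read beside the letters at each start. They run 5′ to 3′ on the gene's strand, from 250 bases before the start to 50 after it, and come from RefSeq on GRCm38.p6, whose table matched 4 of the 6 genes. Capitals mark any match, on either strand, to 3 short motifs that do not overlap in these windows. These were the GC box GGGCGG, which Sp-family factors are known to bind, the homeodomain core TAATTA and the TATA box TATAAA. Gsx2 lies at chr5:75075351-75075650 on the plus strand, Dlx1 at chr2:71529195-71529494 on the plus strand and Dlx2 at chr2:71546705-71547004 on the minus strand. Sp8 has 3 windows, of which the later 2 are shown, at chr12:118846983-118847282 and chr12:118847309-118847608 on the plus strand.
Gsx2: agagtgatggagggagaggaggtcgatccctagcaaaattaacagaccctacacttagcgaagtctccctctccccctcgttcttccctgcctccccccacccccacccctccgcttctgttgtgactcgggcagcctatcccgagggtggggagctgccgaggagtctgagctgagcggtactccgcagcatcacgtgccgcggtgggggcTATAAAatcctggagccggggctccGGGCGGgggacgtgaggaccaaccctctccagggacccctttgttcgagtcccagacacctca
Dlx1: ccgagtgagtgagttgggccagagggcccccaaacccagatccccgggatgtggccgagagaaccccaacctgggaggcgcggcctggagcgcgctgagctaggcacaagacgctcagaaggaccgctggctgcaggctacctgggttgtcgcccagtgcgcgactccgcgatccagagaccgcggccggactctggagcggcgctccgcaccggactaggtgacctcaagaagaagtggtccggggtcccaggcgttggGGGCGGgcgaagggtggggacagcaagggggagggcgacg
Dlx2: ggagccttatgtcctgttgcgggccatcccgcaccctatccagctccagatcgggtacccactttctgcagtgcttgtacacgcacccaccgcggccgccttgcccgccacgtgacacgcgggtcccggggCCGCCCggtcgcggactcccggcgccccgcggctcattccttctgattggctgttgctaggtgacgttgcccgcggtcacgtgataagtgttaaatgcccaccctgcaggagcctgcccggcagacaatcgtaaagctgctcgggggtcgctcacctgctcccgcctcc
Sp8 middle start: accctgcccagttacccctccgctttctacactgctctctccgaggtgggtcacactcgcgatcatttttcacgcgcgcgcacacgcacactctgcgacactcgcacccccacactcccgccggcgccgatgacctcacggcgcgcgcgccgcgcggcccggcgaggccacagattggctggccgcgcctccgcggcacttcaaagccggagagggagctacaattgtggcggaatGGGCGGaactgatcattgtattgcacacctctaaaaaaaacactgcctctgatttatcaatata
Sp8 last start: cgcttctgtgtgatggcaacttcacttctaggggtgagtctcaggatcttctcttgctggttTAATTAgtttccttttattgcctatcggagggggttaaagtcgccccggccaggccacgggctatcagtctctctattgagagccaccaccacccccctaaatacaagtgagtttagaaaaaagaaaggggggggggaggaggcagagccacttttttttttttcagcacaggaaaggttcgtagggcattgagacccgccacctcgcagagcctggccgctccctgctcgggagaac
Gsx2 held a TATA box that begins 38 bases before the start and a GC box 13 bases before it. Dlx1 and Dlx2 held 1 GC box each, beginning 10 bases after the start in Dlx1 and 119 bases before it in Dlx2. The middle start of Sp8 had a GC box beginning 14 bases before it, and its last start a homeodomain core beginning 188 bases before it. The first Sp8 window, chr12:118846079-118846378 (not printed), held 2 matches to TATAAA, beginning 230 and 118 bases before its start. These letters were thus not particular to Gsx2. Both Sp8 matches lay farther from the start than that of Gsx2, so they do not show a TATA box at the same place. Over all 32851 promoters of the table, 35.7% held the GC box, 5.29% the homeodomain core and 13.6% the TATA box. A match describes the letters only and is not a binding site. In the RefSeq order of genes, Dlx1 and Dlx2 on chromosome 2, and Dlx5 and Dlx6 on chromosome 6, are neighbours with 0 protein-coding genes between them.

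Over the course, Dlx1, Dlx2, Dlx5, Dlx6 and Sp8 rose and Gsx2 fell. In limma's linear fit against age, with Benjamini-Hochberg adjustment over all 10864 genes, 5 of the 6 rose and 1 fell at the threshold of 0.05. Over all genes tested 25.2% rose and 21.9% fell, and the 47.2% called in either direction make a call common in this course. The whole bulb was measured, so fewer cells of a type and less RNA per cell cannot be told apart in any of these values. All 6 calls held in each of 20 alternatives, which included the course from E13 to P0 alone, where 14% of genes rose and 11.2% fell.

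**Figure D1:**
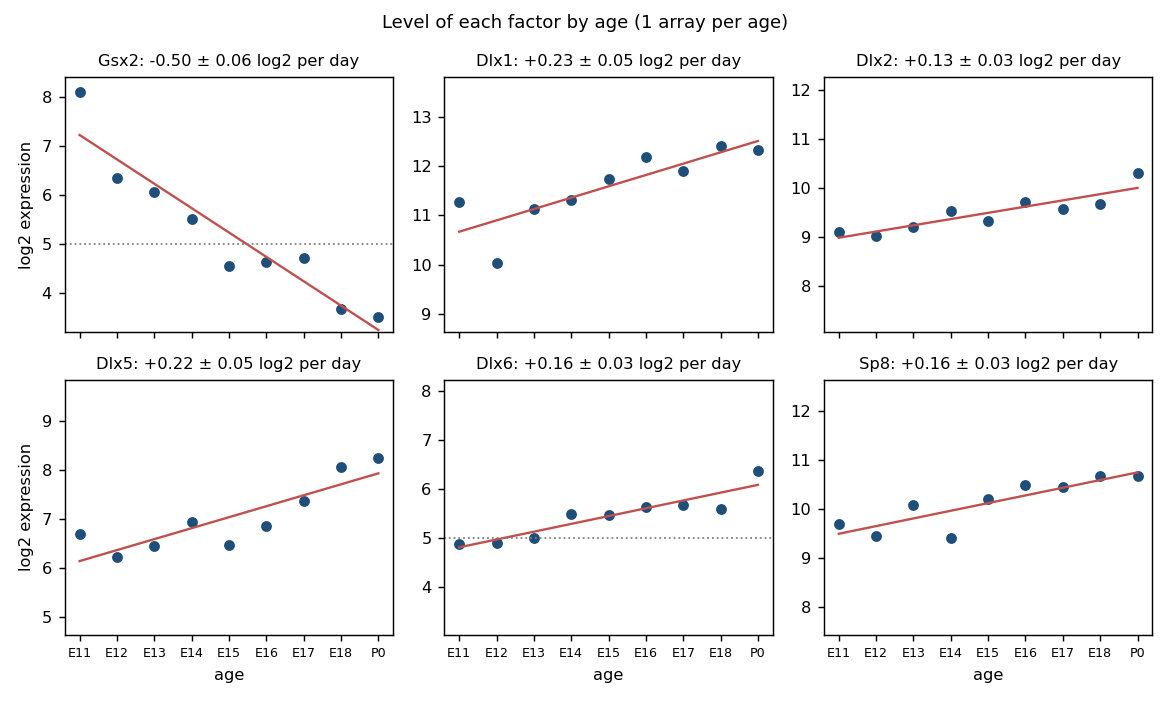
Log2 expression level of each of the 6 genes (vertical axes, log2 units) against age in days (horizontal axes, P0 drawn at day 19), with 1 point per animal and the fitted line. The Gsx2 points go down from 8.10 to 3.52, while the other 5 panels go up, with the E12 point of Dlx1 0.87 below its line.

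Gsx2, the most upstream of the 6, had its highest level on the first day. It read log2 8.10 at E11, 6.36 at E12, 6.06 at E13, 5.51 at E14, 4.56 at E15, 4.65 at E16, 4.73 at E17, 3.69 at E18 and 3.52 at P0. The 4 ages from E11 to E14 were all above the 5 later ages, which lay under log2 5, the level used here as the floor for low signals. The slope was -0.50 ± 0.060 log2 per day (SE, 9 arrays, limma adjusted p = 0.000143). With values under 5 set to 5, P0 was at least 8.57-fold lower than E11, and the slope was -0.32 (limma adjusted p = 0.00376). The largest step between neighbouring ages was the first, which dropped by 1.74 from E11 to E12. The course after E14 was not resolved, since those values lie under the floor.

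Dlx1, whose product acts with that of Dlx2 in specifying the GABAergic fate, ended higher than it began but dipped on the second day. Its levels were log2 11.28 at E11, 10.03 at E12, 11.14 at E13, 11.31 at E14, 11.74 at E15, 12.20 at E16, 11.91 at E17, 12.42 at E18 and 12.34 at P0. E12 was the low point, and the 5 ages from E15 on were all above the 4 earlier ones. The slope was 0.23 ± 0.049 log2 per day (limma adjusted p = 0.00323). P0 was 2.10-fold above E11 and 4.99-fold above E12, so the size of the rise depended on which early array it was read against. From E13 to P0 alone the slope was 0.21 (limma adjusted p = 0.00277).

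Dlx2, the neighbour of Dlx1 on the chromosome, rose without that dip. It read log2 9.10 at E11, 9.02 at E12, 9.21 at E13, 9.53 at E14, 9.33 at E15, 9.71 at E16, 9.57 at E17, 9.67 at E18 and 10.30 at P0. The first 3 ages were the 3 lowest and P0 was the highest. The slope was 0.13 ± 0.025 log2 per day (limma adjusted p = 0.00247), the smallest of the 5 rising slopes, and P0 was 2.29-fold above E11. Of the total difference, 0.63 log2 units came in the last step, from E18 to P0.

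Dlx5, which follows Dlx1 and Dlx2 in the cascade and is also needed for normal development of the bulb, rose mainly late. It read log2 6.69 at E11, 6.23 at E12, 6.44 at E13, 6.94 at E14, 6.46 at E15, 6.85 at E16, 7.36 at E17, 8.06 at E18 and 8.24 at P0. The 6 ages up to E16 overlapped with one another, and E17, E18 and P0 were above all of them. The slope was 0.22 ± 0.047 log2 per day (limma adjusted p = 0.00317), and P0 was 2.92-fold above E11. The squared term of a curved fit was 0.048 ± 0.015 log2 per day squared, with an unadjusted p of 0.00819 that did not pass limma's adjustment (adjusted p = 0.0806). Without the E14 array that adjusted p was 0.0471. From E13 to P0 the linear slope was 0.30 (limma adjusted p = 0.00482).

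Dlx6, the partner of Dlx5 at the same locus, was close to the floor in the first 3 arrays. It read log2 4.87 at E11, 4.88 at E12, 5.0 at E13, 5.49 at E14, 5.47 at E15, 5.62 at E16, 5.67 at E17, 5.59 at E18 and 6.37 at P0. Read by eye from single arrays, these levels fall into a low stretch to E13, similar values from E14 to E18 and a high P0. These stretches were not tested, and the squared term did not pass (0.0049, limma adjusted p = 0.898). The slope was 0.16 ± 0.033 log2 per day (limma adjusted p = 0.00329), and P0 was at least 2.58-fold above E11, since E11 lay under log2 5. The step from E18 to P0 was 0.78 log2 units.

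Sp8, the zinc finger gene, read log2 9.70 at E11, 9.46 at E12, 10.09 at E13, 9.41 at E14, 10.21 at E15, 10.50 at E16, 10.45 at E17, 10.68 at E18 and 10.68 at P0. The E14 array was its lowest and lay 0.56 below the fitted line, and the 5 ages from E15 on were all above the 4 earlier ones. The slope was 0.16 ± 0.033 log2 per day (limma adjusted p = 0.00321), and P0 was 1.97-fold above E11. Unlike Dlx2, Dlx5 and Dlx6, its values at E18 and P0 were the same to 2 decimals.

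Of the 6 genes, 3 (Dlx2, Dlx5 and Dlx6) had their highest value at P0 and 3 (Dlx1, Dlx2 and Dlx5) their lowest at E12. Over all genes tested 16.4% were highest at P0 and 14.7% lowest at E12. In the curved fit with limma, 0 of the 6 squared terms passed the adjusted threshold, against 6.86% of all genes. Unadjusted, 2 had p under 0.05, Dlx5 and Gsx2. The residuals of the straight lines had a standard deviation of 0.19 log2 units for Dlx2 and 0.20 for Dlx6, but 0.44 for Dlx1 and 0.50 for Gsx2, against a median of 0.24 over all genes.

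**Figure D2:**
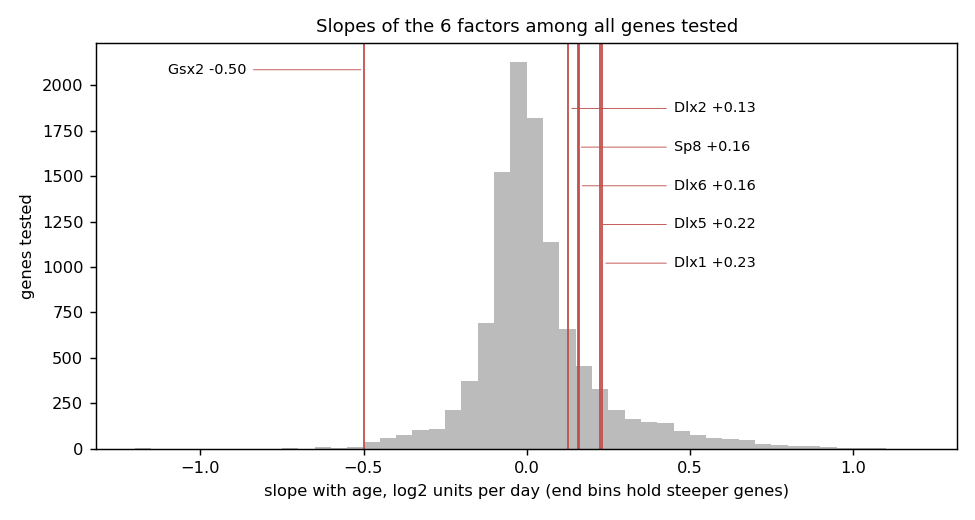
Number of genes (vertical axis) by fitted slope in log2 units per day (horizontal axis) for the 10864 genes tested, with the slopes of the 6 genes marked. Gsx2 at -0.50 lies in the left tail of the distribution, and the other 5 lie between 0.13 and 0.23, on the right shoulder.

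Whether the 6 genes differed from one another in their course was tested on the log2 ratio of each of the 15 pairs. The slope of the ratio against age was set against all 362880 orders of the 9 arrays (exact two-sided permutation test, Benjamini-Hochberg over the 15 pairs). All 5 pairs that hold Gsx2 changed. The ratio of Gsx2 to Dlx1 moved by -0.73 log2 per day (95% interval -0.89 to -0.57, exact permutation adjusted p = 0.000103). It moved by -0.72 against Dlx5, -0.66 against Dlx6, -0.65 against Sp8 and -0.62 against Dlx2, with exact permutation adjusted p-values of at most 0.000132. Since Gsx2 was under log2 5 on 5 arrays, these sizes rest in part on low signals. With values under 5 set to 5 the 5 slopes lay between -0.55 and -0.45, and all passed the exact permutation test.

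Among the 10 pairs of the 5 rising genes, 0 passed the exact permutation test, and the smallest unadjusted p was 0.0533. That was Dlx2 against Dlx6, at -0.032 log2 per day (95% interval -0.064 to -0.00032, adjusted p = 0.133 by the exact permutation test, 0.0472 without the E15 array). The genomic neighbours Dlx1 and Dlx2 differed by 0.10 log2 per day (95% interval -0.033 to 0.24), and Dlx5 and Dlx6 by 0.064 (95% interval -0.065 to 0.19). The intervals of these 2 neighbouring pairs leave room for a difference as large as the smaller slope of the pair, so a like course was not shown. That of Dlx2 against Dlx6 was narrower and did not reach so far. Over the 9 arrays, Pearson's r was 0.789 for Dlx1 with Dlx2 and 0.808 for Dlx5 with Dlx6. It was 0.972 for Dlx2 with Dlx6, which lie on different chromosomes. All these correlations are descriptions over 9 points that share age.

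**Figure D3:**
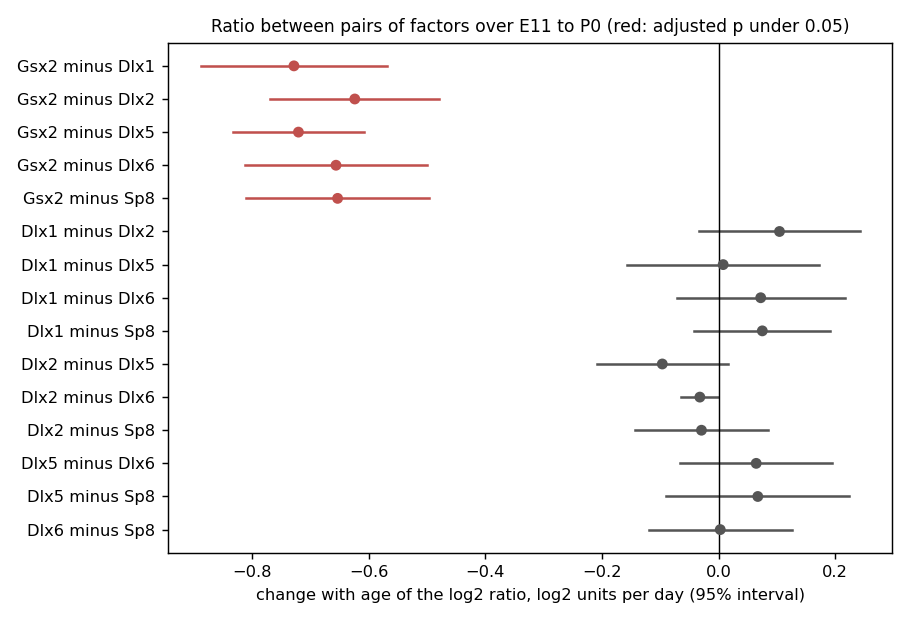
Slope against age of the log2 ratio of each of the 15 pairs of genes (horizontal axis, log2 units per day) with its 95% interval, 1 row per pair. The 5 pairs that hold Gsx2 lie between -0.73 and -0.62, and the other 10 lie between -0.10 and 0.10.

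Dlx1 and a few other genes, picked after their values were seen, were low at E12. Dlx1 lay 0.87 log2 units below its fitted line at E12. Gad1 and Gad2, which encode the enzymes that make GABA, lay 1.08 and 1.14 below theirs. Slc32a1, the vesicular GABA transporter, lay 0.98 below and Dlx6os1, a noncoding RNA antisense to Dlx6 also called Evf2, 0.86 below. From E11 to E12 the level dropped by 1.25 in Dlx1, 1.35 in Dlx6os1, 1.23 in Gad1, 1.44 in Gad2 and 1.12 in Slc32a1. Among the other members the same step was -0.47 in Dlx5, -0.24 in Sp8, -0.083 in Dlx2 and 0.0092 in Dlx6, and it was -0.57 in Dlx1as.

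Single arrays carry this dip, and other lists moved at the same ages. Of all genes tested, 2.84% were at least 2-fold lower at E12 than at E11, and 0.681% were at least 2-fold lower than at both E11 and E13. In the list of GABA and migration effectors, Gad1, Gad2 and Slc32a1 were the 3 of 15 tested genes at least 2-fold lower at E12 than at E11, and in the bulb interneuron factors it was 2 of 17. In the ventral telencephalic list 5 of 11 tested genes were at least 2-fold lower at E12 than at E11, namely Olig1, Olig2, Vax1, Isl1 and Otx2. In the meninges list it was 6 of 14 and in the red cell list 4 of 5, against 0 of 16 pallial factors and 0 of 20 cell cycle genes. The median of the meninges list was log2 6.82 at E11, 4.98 at E12 and 5.48 at E13. E11 and E12 read Xist alike, at 13.42 or more. The part of these other cells in the E12 values was not tested.

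Most of the 5 rising factors rose less steeply over the full course than Gad1, an enzyme gene that Dlx factors are known to activate. Gad1 read 10.76 at E11, 9.53 at E12, 10.79 at E13, 11.68 at E14, 12.23 at E15, 12.84 at E16, 12.94 at E17, 13.04 at E18 and 13.13 at P0, with a slope of 0.42 ± 0.062 (limma adjusted p = 0.000413). The 9 pairs that follow were picked after the values were seen. The ratio of Dlx1 to Gad1 fell by 0.19 log2 per day (95% interval -0.28 to -0.11, exact permutation adjusted p = 0.00516). The ratios of Dlx2, Dlx6 and Sp8 to Gad1 moved by -0.30, -0.27 and -0.27, each with an exact permutation adjusted p of 0.0151. That of Dlx5 moved by -0.20 and did not pass (exact permutation adjusted p = 0.0664, and 0.0450 without the P0 array). Gad1 has a dimmer second probe set that rose more steeply. With it the ratio slopes were -0.42 for Dlx1, -0.52 for Dlx2, -0.43 for Dlx5, -0.49 for Dlx6 and -0.49 for Sp8, and that of Dlx5 passed (exact permutation adjusted p = 0.00764). From E13 to P0 alone the other 4 did not pass either, with exact permutation adjusted p-values between 0.0571 and 0.0762.

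The antisense transcripts of the Dlx loci did not pass the test of a trend with age. Dlx1as, antisense to Dlx1, read 10.15 at E11, 9.57 at E12, 9.55 at E13, 10.22 at E14, 9.72 at E15, 10.67 at E16, 10.82 at E17, 10.46 at E18 and 9.99 at P0. It was highest at E17 and back within its early range at P0, and its slope of 0.084 ± 0.048 did not pass (limma adjusted p = 0.176). Dlx6os1 read 9.56 at E11, 8.21 at E12, 9.10 at E13, 9.29 at E14, 8.64 at E15, 9.0 at E16, 9.39 at E17, 8.70 at E18 and 8.40 at P0. Its slope was -0.047 ± 0.053 (limma adjusted p = 0.489), and E11 and E12 were its highest and lowest arrays. The ratio of Dlx6 to Dlx6os1 rose by 0.21 log2 per day (exact permutation adjusted p = 0.0160), and that of Dlx1 to Dlx1as by 0.15 (exact permutation adjusted p = 0.0480). The first did not pass without E11 (exact permutation adjusted p = 0.0860), without P0 (0.0937) or from E13 to P0 (0.0571). The second did not pass without E11, E12, E14, E16, E18 or P0, with exact permutation adjusted p-values from 0.0722 to 0.161, or from E13 to P0 (0.284). The strand each of these probe sets reads is named only by its gene symbol.

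**Figure D4:**
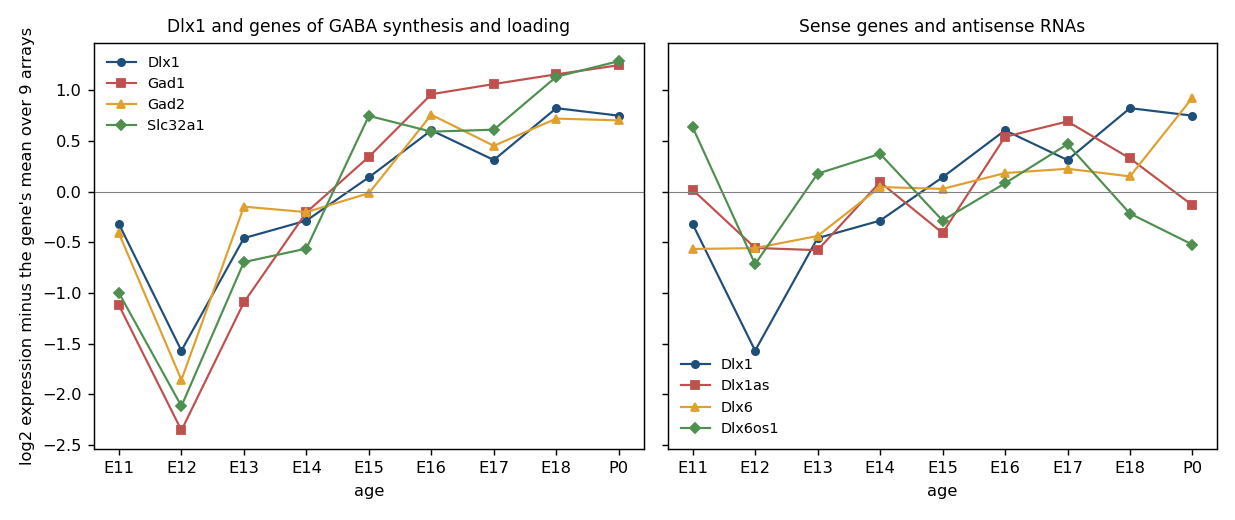
Log2 expression minus the mean of that gene over all arrays (vertical axes) against age in days (horizontal axes), with 1 point per animal. The panels show Dlx1 with Dlx1as, Dlx6 with Dlx6os1, and the GABA genes Gad1, Gad2 and Slc32a1. Heights therefore do not compare the levels of different genes. The E12 points of Gad1, Gad2, Slc32a1 and Dlx6os1 are the lowest of their series, and Dlx1as and Dlx6os1 end lower at P0 than at E17.

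Other members of the same families were low or mostly did not pass the test. Dlx3 and Dlx4 read at most 2.44 and 3.40 on any array, and Gsx1, the close relative of Gsx2, at most 2.14, so none passed the filter. The noncoding Dlx6os2 read at most 2.18. Of the 5 related genes tested, 0 rose and 1 fell (20%), beside 25.2% and 21.9% of all genes. The falling gene was Sp1, a widely expressed Sp factor, at -0.11 ± 0.025 (limma adjusted p = 0.00464). Its call did not hold from E13 to P0 (limma adjusted p = 0.184). Sp3, at 0.048 ± 0.034, and Sp4, at -0.017 ± 0.025, did not pass. Sp9 is not analysed here.

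Among other transcription factors of the ventral telencephalon, the test called 2 of 11 as rising (18.2%) and 3 as falling (27.3%), shares near the 25.2% and 21.9% of all genes. The other 6 missed its threshold, with a median slope of -0.018 beside 0.0020 over all genes tested. Olig1, an oligodendrocyte and ventral progenitor factor, rose by 0.81 ± 0.14 log2 per day (limma adjusted p = 0.00115). Vax1, a ventral homeodomain factor, rose by 0.18 ± 0.059 (limma adjusted p = 0.0268), a call that did not hold without the E12, E18 or P0 array. Isl1, a marker of ventral and striatal precursors, fell from 10.14 at E11 to 2.34 at P0, and Otx2 from 9.86 to 5.01. Nkx2-1 and Nkx6-2, factors of the medial ganglionic eminence, read at most 1.91 and 2.37 on any array. Lhx8, a factor of the same region, read 5.39 at E11 and at most 3.08 afterwards.

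Among 17 transcription factors of later bulb interneurons there were 8 rising calls (47.1%, beside 25.2% of all genes), 3 falling calls (17.6%, beside 21.9%) and 6 with neither. Nr2f2, also known as COUP-TFII, rose by 0.36 ± 0.067 and Tshz1, needed for the radial migration of bulb interneurons, by 0.32 ± 0.061 (limma adjusted p = 0.00175 and 0.00185). Neither passed from E13 to P0, at 0.22 and 0.18 (limma adjusted p = 0.0747 and 0.0819). Pax6, which acts in dopaminergic periglomerular cells and in pallial progenitors, fell by 0.25 ± 0.020 (limma adjusted p = 1.43e-05). Fezf1 fell by 0.48 ± 0.15 (limma adjusted p = 0.0238). It read 7.63 at E11, 5.41 at E12 and at most 2.61 afterwards, so its falling call rests on the earliest ages. Fezf1 did not pass without the E11 array (limma adjusted p = 0.155) or the E12 array (0.0668), and had a slope of 0.0016 from E13 to P0. From E13 to P0, 5 genes of this list rose and 1 fell, beside 14% and 11.2% of all genes.

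Among 15 effectors of GABA signalling and of migration, 8 rose (53.3%, beside 25.2% of all genes), 1 fell (6.67%, beside 21.9%) and 6 had no call. From E13 to P0, 4 of the 15 rose, where 14% of all genes did. Prokr2, the prokineticin receptor used by neuroblasts entering the bulb, rose from 6.32 at E11 to 11.01 at P0, at 0.54 ± 0.12 log2 per day (limma adjusted p = 0.00449, but 0.0535 by the exact rank test). Tnr, a matrix protein that recruits them, had a slope of 0.76 ± 0.17 (limma adjusted p = 0.00425), which did not pass from E13 to P0 (limma adjusted p = 0.112). Pak3, a kinase, fell by 0.11 ± 0.028 (limma adjusted p = 0.00816) but did not pass without the E11 array (0.0565) or from E13 to P0 (0.0676). Among the 13 tested genes that mark interneuron subtypes, 7 rose (53.8%) and 0 fell, beside 25.2% and 21.9% of all genes. Npy had the largest slope at 1.02 ± 0.14, and it is also on the ensheathing cell list. Penk, which encodes enkephalin, rose by 0.76 ± 0.073 (limma adjusted p = 3.77e-05).

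Pallial glutamatergic factors mostly fell. Of 16 tested, 11 fell (68.8%, beside 21.9% of all genes) and 1 rose (6.25%, beside 25.2%), the mitral cell factor Tbx21. Neurog1, a proneural factor, had a slope of -0.72 ± 0.064 and Dmrta1, a pallial progenitor factor, of -0.63 ± 0.052 (limma adjusted p = 2.55e-05 and 1.54e-05). The median slope of the list was -0.34 log2 per day. With Gsx2, all 20 tested cell cycle genes fell (100%, beside 21.9% of all genes), with a median slope of -0.38. The ratio of Gsx2 to Mki67, a gene of dividing cells, moved by -0.18 log2 per day (exact permutation adjusted p = 0.0160). It did not pass without the E11 array (0.106) or from E13 to P0 (0.261), and its slope was 0.00085 with values under 5 set to 5. The ratio of Gsx2 to Pax6, which also marks dividing progenitors, moved by -0.25 (exact permutation adjusted p = 0.00516), and did not pass with that floor (0.456) or from E13 to P0 (0.0571). The part of dividing cells in the fall of Gsx2 was not tested.

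**Figure D5:**
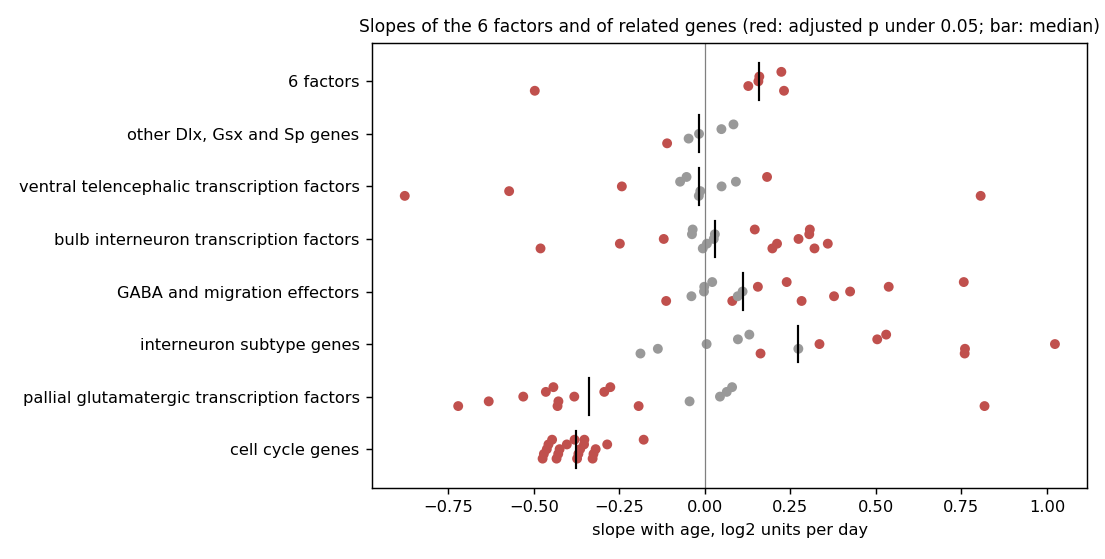
Slope against age (horizontal axis, log2 units per day) of the 6 genes and of the tested genes of related lists. Each list has 1 row, with 1 point per gene and a bar at the list median. The pallial and cell cycle rows lie mostly left of 0, with medians of -0.34 and -0.38. The row of interneuron subtype genes lies mostly right of 0, with a median of 0.27.

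The pallial factors Eomes and Tbr1, which mark projection neurons of bulb and cortex alike, read 11.34 to 12.60 and 10.29 to 12.11 over the arrays. Of 10 tested mitral and tufted cell markers, 6 rose and 2 fell, Tbr1 and Lhx1. Lhx1 was above log2 5 only at E11 and E13, and its call did not hold with values under 5 set to 5. Reln and Slc17a6 were above log2 5 on every array. Among the more bulb-specific mitral cell genes, Tbx21 and Cdhr1 were lowest at E11. Tbx21 was under log2 5 at E11 (2.40), E12 (4.15) and E14 (4.91) and reached 9.28 at P0, and Cdhr1 rose from 6.39 at E11 to 13.86 at P0. In the early arrays these markers alone do not identify bulb. Dlx5, Dlx6 and Sp8 are also used in the nasal placode, skull and skin, so markers of those tissues were read beside them. Of 16 nasal markers on the arrays 12 did not pass the filter, among them Omp, the marker of mature sensory neurons, at no more than 2.24. Six4, a placode factor also under the filter, read 6.35 at E11 and under log2 5 afterwards. Of the 4 tested, 2 rose, Gnal and Adcy3, and 1 fell, Emx2, which is also on the pallial list. Of 15 bone and cartilage markers 10 did not pass. Of the 5 tested, 2 rose, Col1a1 and Col1a2, and 1 fell, Col2a1. Sp7, a bone factor, read 4.43 to 5.37. Of 13 surface ectoderm markers 10 did not pass, with Krt14 at no more than 2.25 and Trp63 at no more than 2.79. Of these 10, Krt5 and Grhl2 were above log2 5 at E12 alone (5.12 and 5.32) and Cdh1 at P0 alone (5.83). The rest were under log2 5 on every array. Epcam, which was tested, read 6.60 at E11, 6.33 at E12 and at most 4.34 afterwards. Perp rose. Epcam fell by 0.30 log2 per day (limma adjusted p = 0.0480), a call that did not hold without E11 (0.254), E12 (0.145), E16 (0.0673), E17 (0.0557) or E18 (0.0888). The summed level of the 16 nasal markers ran from 904 to 1713 on the linear scale, and from 223 to 842 without Emx2. That of the 15 bone markers ran from 930 to 7548, and that of the 13 ectoderm markers from 289 to 501. Col1a2 was the highest bone marker on every array, at log2 9.08 to 12.77, and the 10 bone markers under the filter read at most 5.24. The bone sum therefore follows Col1a2 in the main.

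Markers of other cells in or around the bulb changed over the same ages. Ensheathing cell markers rose in 9 of 10 tested (90%) and meninges markers in 12 of 14 (85.7%), beside 25.2% of all genes. The median of the ensheathing list ran from log2 4.19 to 9.06. Its summed level on the linear scale, over 11 markers, ran from 22643 to 49923 and was mostly Fabp7, also a gene of radial glia. Without Fabp7 it ran from 181 to 7483. The summed level of the 14 meninges markers ran from 3452 to 36789. Red cell markers fell in 4 of 5 (80%, beside 21.9% of all genes), with a summed level over 10 markers from 219 to 79290. The part of these cells in the members' values was not tested. The median of an array ran from 4.08 to 4.23, the difference between 3′ and 5′ control probe sets from 1.48 to 1.90 for actin and from 1.55 to 2.12 for Gapdh. Xist read at least 13.42 on 4 arrays and at most 2.76 on the other 5, and all 6 calls held with it as a covariate.

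For each of the 6 genes the 5 genes of most similar course were taken by Pearson's r over the 9 arrays, as a description over points that share age. A direction or a dip that they share with that gene is part of how they were picked. The nearest to Gsx2 were Eif1ax (0.995), Nedd1 (0.995), Tipin (0.992), Tube1 (0.992) and Suv39h2 (0.990), which all fell with age. Nedd1 and Tube1 encode proteins of the centrosome and Tipin one of the replication fork. The nearest to Dlx1 were Mknk1 (0.982), Anxa4 (0.981), Gad2 (0.976), Slc35b3 (0.976) and Slc17a7 (0.975), and all 5 were lower at E12 than at E11. The nearest to Dlx5 were Abca8a (0.972), Entpd2 (0.961), Ncf1 (0.961), Aqp4 (0.960) and Kcna1 (0.959), of which Aqp4, the water channel of astrocytes, went from 2.46 at E11 to 7.60 at P0. All 5 were under log2 5 from E11 to E16, and Ncf1 also at E17, so their early courses were not resolved. With values under 5 set to 5, the rising calls of Entpd2 and Ncf1 did not hold (limma adjusted p = 0.0529 and 0.0553). Those of Abca8a, Aqp4 and Kcna1 did. Dlx2 and Dlx6 were each other's second nearest gene, and they shared Exoc6, Fbxo8 and Gtpbp8 among their nearest 5. The remaining one was Pip4k2c for Dlx2 and Sat1 for Dlx6. Sp8 was nearest to Ehd3 (0.974), Fbln2 (0.967), Tlcd1 (0.966), Sfmbt1 (0.966) and Smoc1 (0.965).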

How the data were processed

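Expression was measured in the olfactory bulb of 9 CD1 mice, 1 per age. The authors made the deposited log2 levels with GCRMA, per the submitters' processing notes. GCRMA models background from probe sequence and equalises the arrays. Its version is not given in the sources used here. That the scale is log2 follows from this method and the range of the values. Of 45101 probe sets, 64 controls were left out, 34958 carried 1 gene symbol in the platform annotation, 932 several and 9211 none. Probe sets with 1 symbol were used if 2 or more arrays reached log2 5, and for each gene the one with the highest mean (10864 genes). Folds set values under 5 to 5 and are then written as at least that fold.

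Each gene was fitted against age with limma 3.58.1 in R 4.3.3 (variance trend, two-sided, Benjamini-Hochberg over all genes, threshold 0.05), with P0 at day 19 and 7 residual degrees of freedom (10.3 moderated). Errors are standard errors. The curved fit added age squared. Ratios of gene pairs were tested by exact permutation, and their 95% intervals come from the straight-line fit. The fits were tested on simulated data. Genes named are the 6 members, their 5 nearest genes, up to 2 rising and 2 falling genes per list, and defining markers under the floor. Others, such as Olig2, Slc32a1 and Lhx8, were named after their values were seen. The members and lists were chosen with earlier results of these data known. Alternatives left out each array, restricted ages, or changed normalization, floor, filter, probe set, covariate, variance model or test. The number of arrays limits precision.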

Additional observations from a re-analysis of the deposited data

How the results depend on the processing

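All 6 linear calls of the members held in 20 of 20 alternatives, with highest adjusted p-values from limma or the exact rank test between 0.00559 (Gsx2) and 0.0392 (Dlx6), and the 5 ratio calls with Gsx2 held in every alternative run. From E13 to P0, 1525 genes rose and 1219 fell, against 2743 and 2382 over all ages. That setting gave slopes of 0.053 for Crabp2, 0.029 for Epcam and 0.0016 for Fezf1, and ratio slopes of -0.090 for Dlx1 to Dlx5 and -0.0017 for Dlx6 to Sp8, each opposite in sign to the full course. The Dlx6 to Sp8 ratio was -0.011 with values under 5 set to 5 and -0.022 after quantile normalization. With that floor the squared term of Gsx2 passed at 0.086 (limma adjusted p = 0.0140), and the Gsx2 to Mki67 slope was 0.00085. The lowest-mean probe set gave -0.17 for Exoc6, -0.026 for Sfmbt1 and 0.0083 for Sp4. Squared terms that turned sign were not called on either side. For Dlx1 they were 0.0010 after quantile normalization, 0.0036 after median centring and 0.010 with Xist as covariate. With Xist that of Dlx6 was -0.0026. That of Sp8 was -0.0016 from E13 to P0 and -0.0024 with P0 2 days after E18. Leaving out single arrays, squared terms ran from -0.055 to 0.015 for Dlx1, -0.0062 to 0.017 for Dlx2, 0.038 to 0.060 for Dlx5, -0.017 to 0.010 for Dlx6 and -0.0082 to 0.016 for Sp8. Ratio slopes then ran from -0.043 to 0.060 for Dlx1 to Dlx5, -0.041 to -0.027 for Dlx2 to Dlx6 and -0.037 to 0.030 for Dlx6 to Sp8, and linear slopes from -0.11 to 0.00043 for Dlx6os1 and -0.023 to 7.5e-05 for Sp4. The causes were not tested. No paired analysis was possible because each age has 1 array.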
